A study of Arabidopsis thaliana with 305 samples.

Results

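The 4 genes described here make and inactivate N-hydroxypipecolic acid (NHP) in Arabidopsis thaliana: ALD1 (AT2G13810), SARD4 (AT5G52810), FMO1 (AT1G19250) and UGT76B1 (AT3G11340). They were taken by gene identifier from a table of read counts for 25320 genes, in which all 4 had a row. All 4 were also among the 19687 genes that passed the filter on low counts. ALD1 and FMO1 passed it through the groups sampled at 4 and 8 h, since their counts before that lay between 0 and 3 per sample.

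NHP is a lysine-derived signal that builds up in infected leaves and primes distant leaves, a state called systemic acquired resistance. ALD1 is the aminotransferase that draws lysine into the pathway, SARD4 is a reductase that completes pipecolic acid, and FMO1 is the monooxygenase that hydroxylates pipecolic acid to NHP. UGT76B1 is a glucosyltransferase that attaches glucose to NHP, and to salicylic acid, and so lowers the free pool. Intracellular immune receptors (NLRs) detect bacterial effector proteins. Some of these sensors need helper NLRs of the ADR1 and NRG1 families to pass the signal on.

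RNA was sequenced from leaf discs of 6-week-old plants grown under short days. The mutants were the nrg1.1 nrg1.2 double mutant (nrg1), the adr1 triple mutant (adr1) and the helperless line, which combines the losses of both families, and they were compared with the wild type Col-0. The labels give no allele names. Leaves were infiltrated by hand with Pseudomonas fluorescens Pf0-1 according to the series description, whereas the treatment protocol in the labels names P. syringae strains for growth curves. The bacteria delivered AvrRps4, AvrRpt2 or AvrRpm1, which are detected by the NLRs RRS1/RPS4, RPS2 and RPM1, or carried an empty vector (EV). Samples were taken at 0.5, 4 and 8 h, and from leaves without infiltration (T0). This gave 52 groups of 3 replicates, 156 in all, made by summing the counts of libraries that share a group and replicate number (305 libraries). Of these replicates, 149 had 2 libraries and 7 had 1. Those with 1 library include replicate 2 of adr1 and of helperless with AvrRps4 at 8 h. They also include replicates 1 and 3 of nrg1 with AvrRps4 at 4 h, and replicate 1 of helperless with EV at 8 h.

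On the TAIR10.1 annotation of RefSeq, ALD1 lies at chr2:5768417-5772266 on the plus strand with 10 exons and encodes 456 amino acids. SARD4 lies at chr5:21399331-21400686 on the plus strand, has 1 exon and encodes 325 amino acids. It shares 89 bases with AT5G52800, a gene on the same strand, so reads from those bases cannot be assigned to one of them alone. FMO1 lies at chr1:6650476-6653195 on the minus strand with 5 exons and encodes 530 amino acids. UGT76B1 lies at chr3:3556554-3558361 on the plus strand with 2 exons and encodes 447 amino acids. The exons of these genes held 0 stretches of 50 bases, the read length, that also occur elsewhere in the genome.

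The 250 bases before each annotated start are shown because the 4 genes moved together over much of the experiment. Capitals mark matches, on either strand, to GAAATT, the core bound by the transcription factors SARD1 and CBP60g, and to TTGAC, the W-box core bound by WRKY factors. The sequences are from RefSeq TAIR10.1 and run 5′ to 3′ along the gene's own strand, at chr2:5768167-5768416 for ALD1, chr5:21399081-21399330 for SARD4, chr1:6653196-6653445 on the minus strand for FMO1 and chr3:3556304-3556553 for UGT76B1.
ALD1: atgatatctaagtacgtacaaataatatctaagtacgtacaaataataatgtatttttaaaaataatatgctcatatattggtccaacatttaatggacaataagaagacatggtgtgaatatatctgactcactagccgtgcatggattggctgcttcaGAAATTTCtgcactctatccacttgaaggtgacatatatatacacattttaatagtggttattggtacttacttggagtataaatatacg
SARD4: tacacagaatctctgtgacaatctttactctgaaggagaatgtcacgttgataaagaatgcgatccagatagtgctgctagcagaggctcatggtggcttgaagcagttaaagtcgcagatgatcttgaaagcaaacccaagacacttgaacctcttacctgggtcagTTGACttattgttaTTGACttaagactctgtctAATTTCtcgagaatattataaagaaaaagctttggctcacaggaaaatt
FMO1: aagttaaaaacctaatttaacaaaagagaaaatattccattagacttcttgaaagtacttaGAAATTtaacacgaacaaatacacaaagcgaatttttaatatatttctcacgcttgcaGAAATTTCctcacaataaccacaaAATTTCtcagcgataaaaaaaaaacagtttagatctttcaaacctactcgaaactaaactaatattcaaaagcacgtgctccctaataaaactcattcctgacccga
UGT76B1: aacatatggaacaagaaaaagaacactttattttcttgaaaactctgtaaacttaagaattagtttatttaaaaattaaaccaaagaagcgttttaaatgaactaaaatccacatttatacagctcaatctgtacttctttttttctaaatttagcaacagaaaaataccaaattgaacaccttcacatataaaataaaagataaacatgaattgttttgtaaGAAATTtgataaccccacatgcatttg

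GAAATT occurred at least once in all 4 windows, each taken from 250 bases before to 50 after the start, while 36.7% of 27443 promoter windows of that length in the genome held it. UGT76B1 held 1 match 27 bases before the start and SARD4 held 1 on the opposite strand 49 bases before it. In ALD1, 90 bases before the start, and in FMO1, 131 bases before it, matches on both strands overlapped, and FMO1 held further matches 189 and 107 bases before the start. TTGAC, found in 50.5% of all windows, occurred in SARD4 alone of the 4, 82 and 68 bases before the start. TGACG, the core of TGA factor sites, which can overlap TTGAC, and CGCGT, the core of CAMTA sites, were found in 23.1% and 8.7% of all windows and in 0 of the 4. These are matches of letters and not measured binding. SARD4 shares 89 bases with AT5G52800 on the same strand, and whether its window lies within that gene was not examined.

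Total counts per replicate ran from 4276389 to 28926563, with a median of 11021790. Levels below are CPM, the counts of a gene scaled to a common library size after TMM normalisation. The genotype labels were checked by dividing the ADR1-L1 count by that of ADR1-L2, and in infiltrated leaves this ratio lay between 32.6 and 659 in 135 adr1 and helperless libraries and between 1.15 and 5.57 in 137 Col-0 and nrg1 libraries. In a further 10 libraries it went against the label, of which 7 were EV libraries of replicate 3 at 8 h, at least 1 from each genotype. The others were both adr1 libraries of replicate 2 with AvrRpm1 at 8 h and 1 nrg1 library of replicate 3 with AvrRpm1 at 4 h. In that nrg1 replicate, and in replicate 3 of nrg1 with EV at 8 h, only 1 of the 2 summed libraries went against the label. ADR1-L2 itself had medians of 22.0 CPM in adr1 and 21.8 CPM in helperless, against 129 CPM in Col-0, whereas ADR1-L1 had medians of 4120 CPM in adr1 and 4650 CPM in helperless, against 297 CPM in Col-0. NRG1.1 and NRG1.2 reads were present in every genotype, so these counts did not separate nrg1 from Col-0. The summed level of 4 leaf markers, all detected, was 489 to 2700 CPM with EV at 8 h and 31200 to 42600 CPM at T0, while the 3 root markers summed to at most 1.13 CPM in any replicate. For 3 epidermis markers the median sum was 17.1 CPM with EV at 8 h and 64.0 CPM at T0. It was 39.8 and 48.9 CPM for 5 guard cell markers, and 317 and 394 CPM for 3 vascular markers. In such bulk samples fewer cells of a type and less RNA per cell cannot be told apart, and the part of these shifts in the results below was not tested.

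All 4 genes were higher 8 h after bacteria were introduced than in leaves without infiltration, but they began from different levels. Over the 12 T0 samples ALD1 and FMO1 had 0 or 1 count each, and each was at 0 counts in 8 of the 12. SARD4 was already present at T0, with a lowest, median and highest level of 3.32, 11.6 and 28.6 CPM, and UGT76B1 with 0.166, 2.02 and 14.0 CPM. At 0.5 h ALD1 and FMO1 still had at most 3 counts per sample, in 48 samples under all bacteria. By 8 h, over 48 samples, the medians were 14.7 CPM for ALD1, 84.7 CPM for SARD4, 29.6 CPM for FMO1 and 986 CPM for UGT76B1. These medians pool all bacteria and genotypes. In Col-0 at 8 h, ALD1 and FMO1 averaged 2.08 and 3.52 CPM with EV, against 103 and 142 CPM with AvrRps4. In helperless with AvrRps4 at 8 h they averaged 1.26 and 1.24 CPM. At T0 the sample numbered 3 had the highest and the sample numbered 1 the lowest UGT76B1 level in all 4 genotypes, for example 13.1 and 0.363 CPM in Col-0. The plot of levels shows these ranges in every group.

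**Figure D1:**
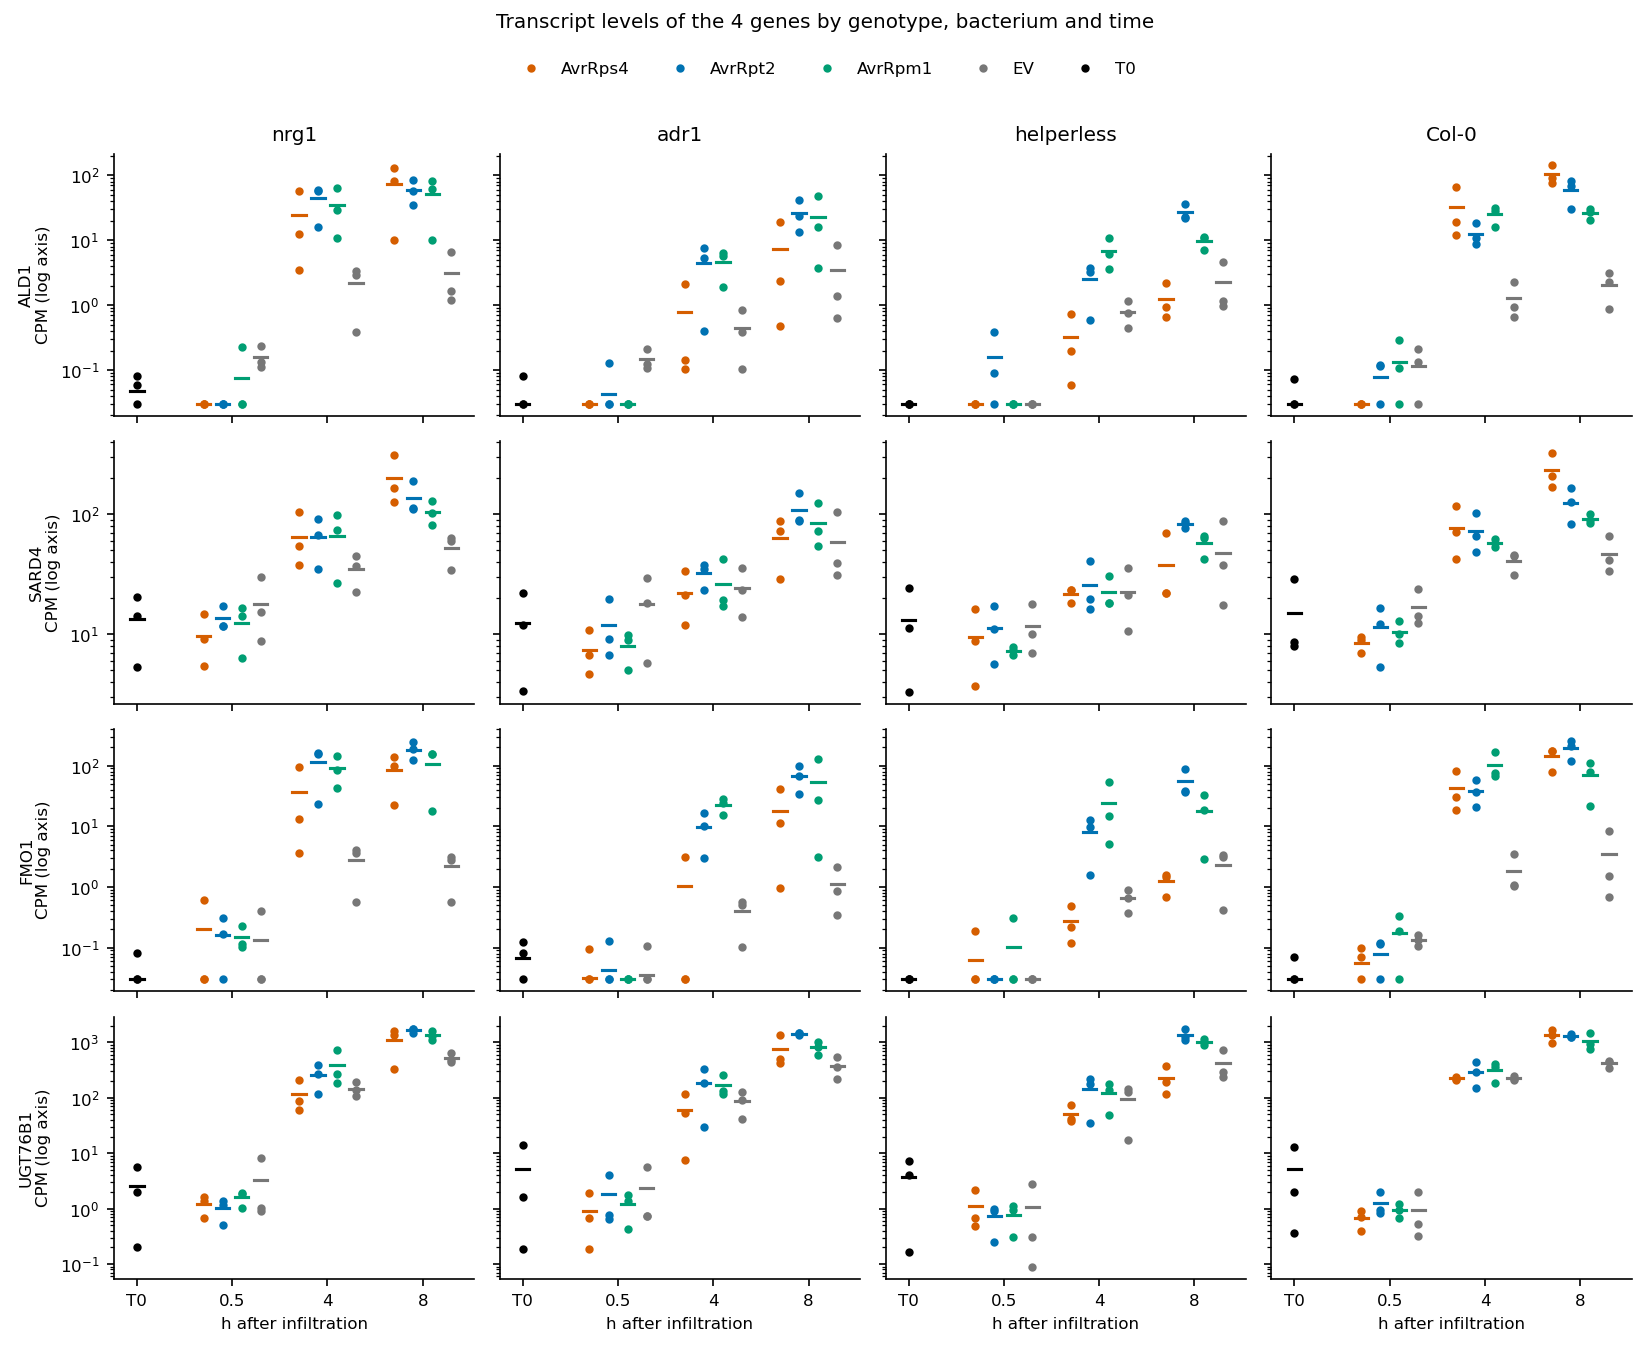
Levels of ALD1, SARD4, FMO1 and UGT76B1 in CPM on log axes (rows) in nrg1, adr1, helperless and Col-0 (columns), at T0 and at 0.5, 4 and 8 h under each bacterium, with 1 point per replicate and a bar at the mean of n = 3; values under 0.03 CPM, zeros included, are drawn at 0.03. ALD1 and FMO1 stay near 0 up to 0.5 h in every genotype, and the AvrRps4 points of helperless at 8 h (0.654 to 2.19 CPM for ALD1) lie far below those of Col-0 (75.9 to 142 CPM).

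The pathway rose by 4 h in Col-0 leaves infiltrated with EV bacteria. The T0 leaves were not infiltrated and no mock infiltration was analysed here, so the bacteria, the infiltration and the time passed cannot be told apart. A gene was called changed at a Benjamini-Hochberg adjusted p under 0.05 over all 19687 genes (edgeR quasi-likelihood test) together with a log2 fold change of at least 1 in size. With EV at 4 h against T0, all 4 genes rose in Col-0, where 23.4% of all genes tested rose. UGT76B1 had 214, 251 and 206 CPM with EV at 4 h, against 0.363, 2.03 and 13.1 CPM at T0, with no overlap (log2 fold change 5.44 ± 0.94 SE, adjusted p = 4.96e-07). SARD4 had 31.3, 45.7 and 44.9 CPM with EV at 4 h, against 7.91, 8.55 and 28.6 CPM at T0 (1.44 ± 0.56, adjusted p = 0.0202). ALD1 and FMO1 had 48 and 71 counts in all with EV at 4 h, against 1 count each at T0. The ratio of levels was 54.5 for ALD1 (95% exact counting interval 9.33 to 2200) and 80.7 for FMO1 (14.0 to 3230). Without replicate 1, ALD1, FMO1 and SARD4 did not pass in this contrast and UGT76B1 alone did, and SARD4 did not pass without replicate 2 either. The counting intervals, like the floors below, cover counting error only, because PCR copies are not independent molecules. Libraries of the same replicate also differed by more than counting error.

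Over all genotypes and times, 28 of the 48 pairs of gene and EV contrast against T0 rose and 1 fell. All 4 genes rose at 8 h in Col-0, nrg1, adr1 and helperless, against 19.3%, 19.7%, 17.4% and 18.2% of all genes. At 4 h all 4 also rose in nrg1 (23.3% of all genes), whereas ALD1, FMO1 and UGT76B1 rose in helperless (20.7%) and UGT76B1 alone in adr1 (21.6%) by edgeR. DESeq2 called 2 of the 4 genes in adr1. ALD1 and FMO1 had 15 and 13 counts in all there with EV at 4 h, against 1 and 2 at T0. Set directly against adr1 with EV at 4 h, helperless had 0 of 4 called by edgeR and 0 by DESeq2. In helperless, ALD1 had 0.451, 0.746 and 1.14 CPM with EV at 4 h and 0 counts in all T0 samples, which makes it at least 12.1-fold higher against a floor of 3 counts over the group. FMO1 was at least 8.79-fold higher there by the same rule. UGT76B1 had 523 ± 112 CPM in nrg1, 372 ± 160 CPM in adr1, 424 ± 275 CPM in helperless and 417 ± 64.9 CPM in Col-0 with EV at 8 h (SD, n = 3 each), and the ranges of the 4 genotypes overlapped. The single fall was UGT76B1 in Col-0 with EV at 0.5 h, where 9.22% of all genes fell. It had 0.528, 0.321 and 1.99 CPM with EV, against 0.363, 2.03 and 13.1 CPM at T0, so the groups overlapped (log2 fold change -2.54 ± 0.96, adjusted p = 0.0333), and the call ended without replicate 2 or without replicate 3. Without the libraries that go against their label, the rises of FMO1 in adr1 and of SARD4 in helperless at 8 h no longer passed. Of the 29 calls, 22, 23 and 27 remained when replicate 1, 2 or 3 was left out of every group.

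In Col-0, ALD1 and FMO1 rose above their EV level with each effector at 4 and 8 h. SARD4 rose less, and passed at 8 h with AvrRps4 and AvrRpt2 alone. At 0.5 h, edgeR called 0 of the 12 pairs of gene and effector in Col-0, with 0 at an unadjusted p under 0.05 and 0 by DESeq2. At 4 h ALD1 and FMO1 rose with AvrRps4, AvrRpt2 and AvrRpm1, against 0.665%, 2.43% and 8.91% of all genes. At 8 h both again rose with each effector, against 3.84%, 10.2% and 17.1% of all genes, and SARD4 rose with AvrRps4 and with AvrRpt2. This made 14 calls in 36 pairs, 0 of them falls. UGT76B1 gave 0 calls in 9 Col-0 contrasts by edgeR and 0 by DESeq2, with 2 at an unadjusted p under 0.05.

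With AvrRps4 at 8 h, ALD1 had 75.9, 142 and 91.1 CPM in Col-0, against 3.08, 2.29 and 0.869 CPM with EV (log2 fold change 5.60 ± 0.90, adjusted p = 1.92e-06). FMO1 had 78.7, 174 and 174 CPM with AvrRps4, against 8.37, 0.678 and 1.5 CPM with EV (5.29 ± 0.92, adjusted p = 1.04e-05). Every AvrRps4 sample lay above every EV sample for both genes. SARD4 had 169, 208 and 323 CPM with AvrRps4, against 41.9, 65.4 and 33.4 CPM with EV, a smaller change without overlap (2.32 ± 0.57, adjusted p = 0.0036). UGT76B1 had 962, 1370 and 1680 CPM with AvrRps4, against 450, 460 and 343 CPM with EV. These groups did not overlap either, but the difference did not pass the threshold (1.68 ± 0.79, adjusted p = 0.184).

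With AvrRpt2 at 8 h, FMO1 reached its highest group mean of the experiment, with 207, 118 and 256 CPM in Col-0, against 8.37, 0.678 and 1.5 CPM with EV (5.74 ± 0.94, adjusted p = 1.45e-06). ALD1 had 80.7, 30.7 and 69.5 CPM with AvrRpt2 at that time, against 3.08, 2.29 and 0.869 CPM with EV (4.83 ± 0.87, adjusted p = 1.34e-05). Both genes were far above EV in every sample. SARD4 had 126, 82.3 and 167 CPM with AvrRpt2, and its rise lay close to the threshold (1.42 ± 0.56, adjusted p = 0.0491). With AvrRpm1 at 8 h, ALD1 had 27.6, 30.7 and 20.6 CPM (3.63 ± 0.83 against EV, adjusted p = 0.000216) and FMO1 had 111, 77.1 and 22.0 CPM (4.27 ± 0.88, adjusted p = 4.39e-05). The effectors share the EV samples of a time, so these comparisons are not independent. Of the 14 calls in Col-0, 13, 7 and 12 remained without replicate 1, 2 or 3, and those lost without replicate 2 had adjusted p between 0.0502 and 0.831. ALD1 and FMO1 with AvrRps4 at 4 h did not pass without replicate 2 or with only the groups compared in the fit, and SARD4 with AvrRps4 did not pass without replicate 2 or replicate 3. Without replicate 2, ALD1 with AvrRpt2 and with AvrRpm1 and FMO1 with AvrRpt2 at 4 h did not pass either. Of the calls at 4 h in Col-0, FMO1 with AvrRpm1 alone remained without replicate 2. SARD4 with AvrRpt2 did not pass without any 1 of the replicates, nor without the libraries that go against their label (adjusted p = 0.163).

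**Figure D2:**
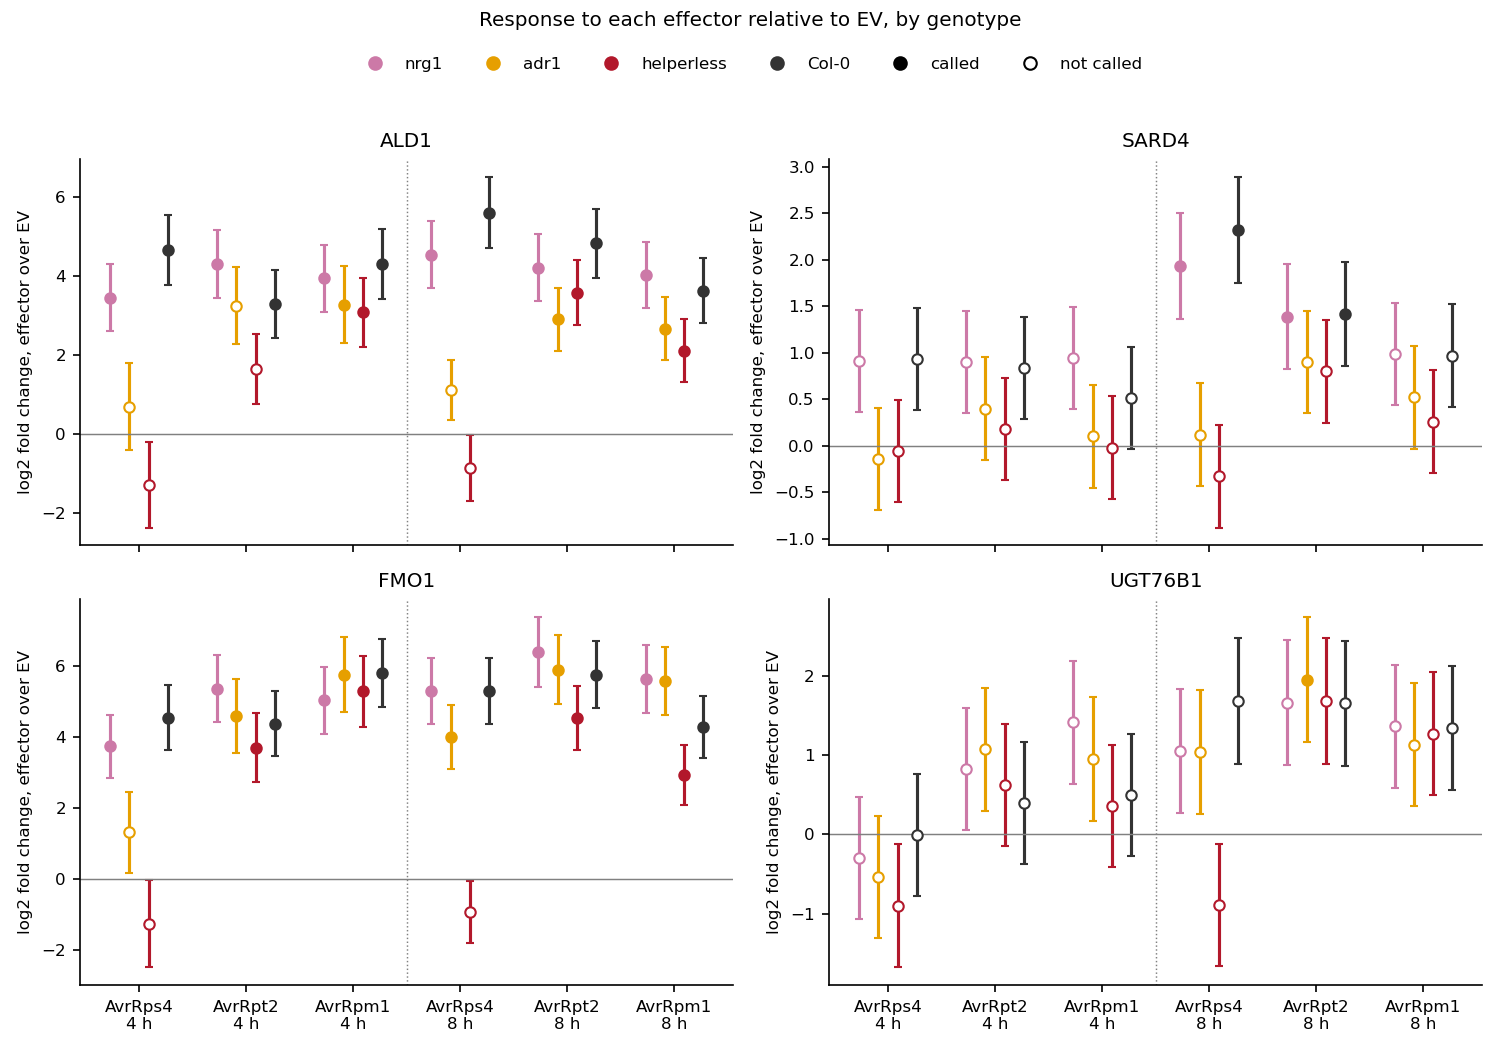
Log2 fold change of each effector over EV at 4 h (left of the dotted line) and 8 h (right of it) for ALD1, SARD4, FMO1 and UGT76B1, with 1 point per genotype and bars of 1 SE from the model of all 156 replicates; filled points were called, open points were not. At 8 h, ALD1 and FMO1 of helperless and AvrRps4 lie below 0 (-0.85 and -0.93), while those of Col-0 lie above 5 (5.60 and 5.29).

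In nrg1 leaves ALD1 and FMO1 rose above their EV level with each effector at 4 and 8 h, and SARD4 rose at 8 h alone. ALD1 and FMO1 rose with AvrRps4, AvrRpt2 and AvrRpm1 at 4 h, against 0.163%, 2.53% and 7.36% of all genes, and at 8 h, against 2.94%, 12.5% and 17.2%. SARD4 rose with AvrRps4 and with AvrRpt2 at 8 h, which gave 14 calls in 36 pairs. With AvrRpm1 at 8 h SARD4 did not pass (0.99, adjusted p = 0.132), but did so with the replicate number as a block (1.09, adjusted p = 0.0488), in a contrast whose same-numbered samples deviated together. With AvrRps4 at 8 h, ALD1 had 9.94, 83.0 and 128 CPM in nrg1, against 1.2, 6.55 and 1.65 CPM with EV (4.54 ± 0.85, adjusted p = 7.3e-05). FMO1 had 22.5, 96.9 and 137 CPM with AvrRps4, against 2.82, 3.16 and 0.568 CPM with EV (5.29 ± 0.93, adjusted p = 1.78e-05). Replicate 1 was the low sample for both genes, yet it still lay above all EV samples. At 4 h the AvrRps4 samples were wider apart, with 3.67, 13.2 and 94.4 CPM for FMO1, against 3.67, 4.04 and 0.569 CPM with EV, and the groups overlapped (3.73 ± 0.88, adjusted p = 0.0328). The ALD1 and FMO1 calls with AvrRps4 at 4 h each ended without any 1 of the 3 replicates and by DESeq2 (adjusted p = 0.111 for both). Of the 14 calls, 11, 8 and 11 remained without replicate 1, 2 or 3. Those lost without replicate 2 include ALD1 with AvrRpt2 and with AvrRpm1 at 4 h, and SARD4 with AvrRps4 and with AvrRpt2 at 8 h.

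Direct tests found no difference between nrg1 and Col-0 that passed. Of 52 pairs of gene and condition, edgeR called 0 and DESeq2 called 0, with 2 at an unadjusted p under 0.05. Both of these were with AvrRpt2 at 4 h, where ALD1 had 44.6 ± 25.0 CPM in nrg1 and 12.6 ± 4.94 CPM in Col-0 (SD, n = 3 each; log2 fold change 1.83 ± 0.76), and FMO1 had 114 ± 78.0 and 38.7 ± 19.2 CPM (1.55 ± 0.78). Of the 36 differences in effector response between nrg1 and Col-0, edgeR called 0 and DESeq2 0, with 0 at an unadjusted p under 0.05. With 3 replicates and this spread, differences of this size did not pass.

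In adr1 leaves FMO1 alone rose with AvrRps4, at 8 h and with replicates far apart, whereas ALD1 and FMO1 rose with AvrRpt2 and AvrRpm1. At 4 h with AvrRps4, ALD1 had 0.142, 0.103 and 2.1 CPM in adr1, against 0.104, 0.848 and 0.385 CPM with EV, so the groups overlapped. FMO1 had 0 counts in replicates 1 and 2 and 3.15 CPM in replicate 3, against 0.104, 0.509 and 0.577 CPM with EV. Neither passed, and over all genes edgeR called 0 of 19687 in this contrast, DESeq2 called 0, and 1298 had an unadjusted p under 0.05. At 8 h FMO1 alone of the 4 rose, where 2.04% of all genes rose. It had 11.2, 0.947 and 40.6 CPM with AvrRps4, against 0.856, 0.346 and 2.17 CPM with EV (3.99 ± 0.90, adjusted p = 0.00409). Replicate 2 with AvrRps4, made of 1 library, lay within the EV range. The call ended without replicate 2 (adjusted p = 0.119) or replicate 3 (0.146). ALD1 had 2.38, 0.473 and 18.8 CPM with AvrRps4, against 1.37, 0.635 and 8.54 CPM with EV, and did not pass (1.11 ± 0.76, adjusted p = 0.482). The EV value of 8.54 CPM was from replicate 3, one of the libraries that go against their label; without those libraries the log2 fold change of ALD1 was 2.90 (adjusted p = 0.128).

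With AvrRpt2 at 8 h, ALD1, FMO1 and UGT76B1 rose in adr1, against 13.5% of all genes. FMO1 had 96.8, 34.3 and 68.0 CPM with AvrRpt2, against 0.856, 0.346 and 2.17 CPM with EV (5.88 ± 0.97, adjusted p = 6.77e-07). UGT76B1 had 1480, 1470 and 1370 CPM with AvrRpt2, against 219, 358 and 538 CPM with EV. This was the one contrast between an effector and EV in which it passed in the model without a block (1.95 ± 0.79, adjusted p = 0.0391). That call ended without replicate 1 and without replicate 2. In Col-0, UGT76B1 had 1260, 1260 and 1410 CPM with AvrRpt2 at 8 h, against 450, 460 and 343 CPM with EV. In nrg1 it had 1710, 1490 and 1770 CPM, against 437, 649 and 483 CPM. The groups did not overlap in either of these genotypes, yet neither difference passed in that model. With the replicate number as a block in edgeR the nrg1 difference passed (1.7, adjusted p = 0.0323). Same-numbered samples did not all deviate together in that contrast. At 4 h in adr1, FMO1 alone rose with AvrRpt2 (1.29% of all genes; 4.58 ± 1.04, adjusted p = 0.00347), and this call ended without any 1 of the replicates. With AvrRpm1, ALD1 and FMO1 rose at 4 h (6.28% of all genes) and at 8 h (19.8%), and FMO1 had 24, 27.9 and 15.1 CPM at 4 h, against 0.104, 0.509 and 0.577 CPM with EV. At 8 h FMO1 had 26.9, 130 and 3.07 CPM with AvrRpm1, of which replicate 2, the highest, consists of libraries against their label; both calls at 8 h held without those libraries. SARD4 gave 0 calls in the 9 effector contrasts of adr1 by edgeR and 0 by DESeq2, with 2 at an unadjusted p under 0.05, both lower with an effector at 0.5 h. Of the 9 calls in adr1, 5, 4 and 7 remained without replicate 1, 2 or 3. Without the libraries that go against their label all 9 remained and 2 more passed.

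In helperless leaves none of the 4 genes passed the test with AvrRps4, and at 8 h the AvrRps4 samples overlapped the EV samples for each gene. With AvrRps4 at 8 h, ALD1 had 0.654, 0.947 and 2.19 CPM, against 1.16, 0.961 and 4.58 CPM with EV, so the groups overlapped (-0.85 ± 0.84, adjusted p = 1). FMO1 had 1.45, 1.58 and 0.679 CPM with AvrRps4, against 3.18, 0.412 and 3.42 CPM with EV (-0.93 ± 0.88, adjusted p = 1). SARD4 had 22.0, 22.1 and 69.9 CPM with AvrRps4, against 17.4, 37.5 and 88.1 CPM with EV, and UGT76B1 had 115, 190 and 381 CPM, against 240, 291 and 740 CPM. Of the 12 pairs with AvrRps4, edgeR called 0 and DESeq2 0, with 0 at an unadjusted p under 0.05. Over all genes edgeR called 0 of 19687 at 4 h and 0 at 8 h, DESeq2 0 at both times, and 237 and 910 had an unadjusted p under 0.05. The helperless EV samples at 8 h include replicate 3, both libraries of which go against their label, and it had the highest EV level of all 4 genes.

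In the same leaves ALD1 and FMO1 rose with AvrRpt2 and with AvrRpm1. FMO1 rose with AvrRpt2 at 4 h (2.30% of all genes), and ALD1 and FMO1 rose with it at 8 h (10.8%). ALD1 had 36.4, 22.1 and 22.4 CPM with AvrRpt2 at 8 h, against 1.16, 0.961 and 4.58 CPM with EV (3.58 ± 0.82, adjusted p = 0.000503). FMO1 had 89.1, 38.9 and 36.8 CPM with AvrRpt2 at 8 h, against 3.18, 0.412 and 3.42 CPM with EV (4.54 ± 0.90, adjusted p = 5.08e-05). Both genes were clear of the EV range in every sample. With AvrRpm1, ALD1 and FMO1 rose at 4 h (9.07% of all genes) and at 8 h (19.2%). At 4 h FMO1 had 14.8, 54.0 and 5.14 CPM with AvrRpm1, against 0.902, 0.373 and 0.671 CPM with EV (5.28 ± 1.00, adjusted p = 3.79e-05). At 8 h FMO1 had 32.4, 18.6 and 2.94 CPM with AvrRpm1, so that its lowest sample lay within the EV range (2.93 ± 0.85, adjusted p = 0.00259). UGT76B1 had 1100, 1710 and 1250 CPM with AvrRpt2 at 8 h and 1030, 894 and 1130 CPM with AvrRpm1, against 240, 291 and 740 CPM with EV. Neither passed in the model without a block, although no EV sample reached the lowest effector sample. With the replicate number as a block in edgeR both passed (1.87, adjusted p = 0.0226, and 1.49, adjusted p = 0.0489). Same-numbered samples did not all deviate together in these contrasts. Of the 7 calls in helperless, 4, 2 and 6 remained without replicate 1, 2 or 3.

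**Figure D3:**
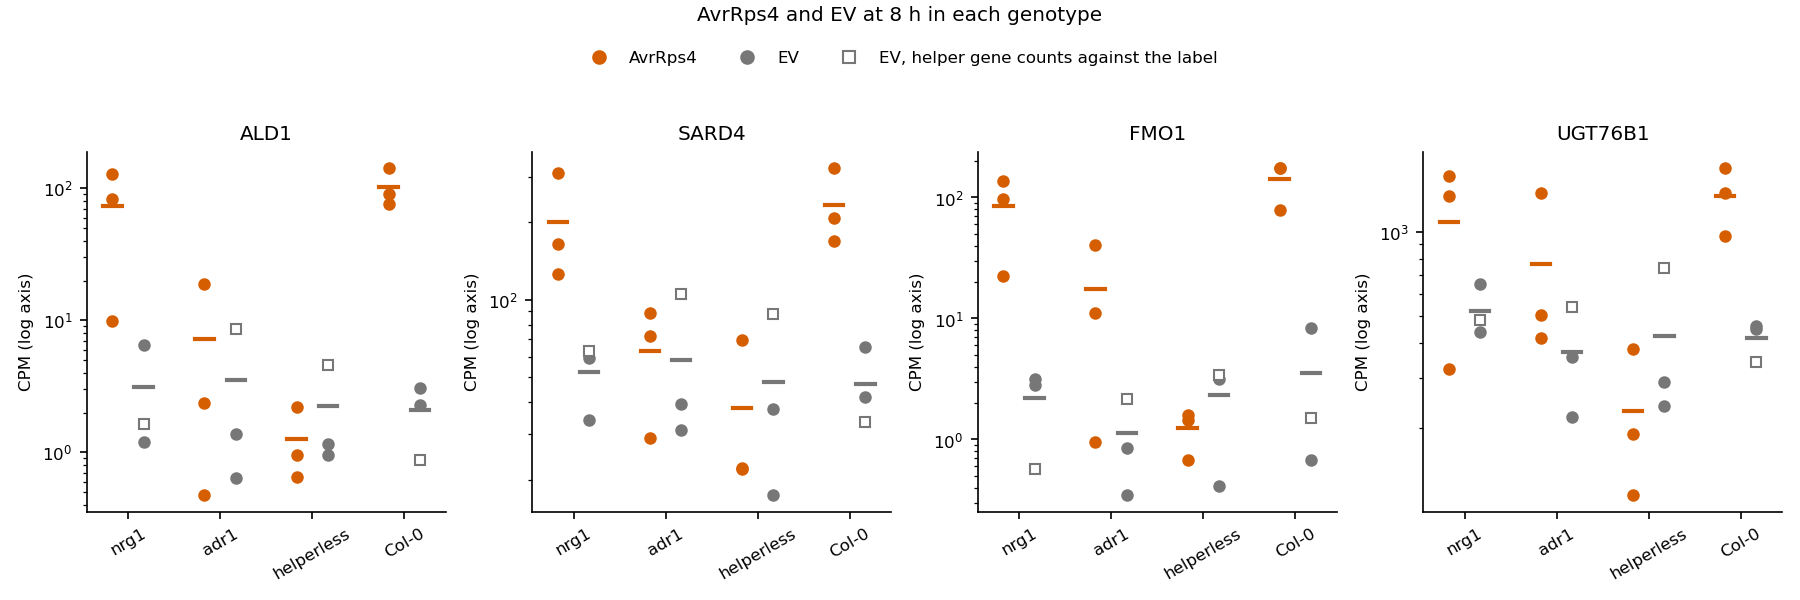
Levels of the 4 genes in CPM on log axes with AvrRps4 and with EV at 8 h in nrg1, adr1, helperless and Col-0, with 1 point per replicate and a bar at the mean of n = 3; open squares are EV replicates with at least 1 library whose helper gene counts go against the label. AvrRps4 lies above EV without overlap for ALD1 and FMO1 in nrg1 and Col-0, the groups overlap in adr1 and helperless, and the open squares are the highest EV samples of all 4 genes in helperless.

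Set directly against Col-0, adr1 and helperless differed in these genes with AvrRps4, and no pair passed under another bacterium or at T0. All 11 calls among 156 pairs were falls, 5 in adr1, 6 in helperless and 0 in nrg1. With AvrRpt2 and with AvrRpm1, edgeR and DESeq2 called 0 of 12 pairs each in adr1 and in helperless, but 3 and 3 pairs in adr1 and 4 and 4 in helperless had an unadjusted p under 0.05, each of them lower than in Col-0. At 4 h, ALD1 and FMO1 fell in adr1 (0.996% of all genes fell) and in helperless (1.33%). ALD1 had 0.142, 0.103 and 2.1 CPM in adr1 and 0.196, 0.0592 and 0.731 CPM in helperless, against 19.4, 65.8 and 12.1 CPM in Col-0. The log2 fold changes were -5.40 ± 0.94 in adr1 (adjusted p = 5.11e-05) and -6.60 ± 1.02 in helperless (adjusted p = 1.84e-06). FMO1 had 0, 0 and 3.15 CPM in adr1 and 0.489, 0.118 and 0.219 CPM in helperless, against 18.6, 82.1 and 30.0 CPM in Col-0 (-5.40 ± 0.98 and -7.36 ± 1.12). No mutant sample reached the lowest Col-0 sample. SARD4 did not pass at 4 h in adr1 (-1.80, adjusted p = 0.122) or helperless (-1.84, adjusted p = 0.0864). In both contrasts same-numbered samples deviated together, and with the replicate number as a block SARD4 fell (-1.86, adjusted p = 0.0222, and -1.78, adjusted p = 0.0277).

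At 8 h, all 4 genes fell in helperless against Col-0 with AvrRps4, where 7.32% of all genes fell. ALD1 had 0.654, 0.947 and 2.19 CPM in helperless, against 75.9, 142 and 91.1 CPM in Col-0 (-6.36 ± 0.94, adjusted p = 1.23e-07). FMO1 had 1.45, 1.58 and 0.679 CPM in helperless, against 78.7, 174 and 174 CPM in Col-0 (-6.84 ± 1.01, adjusted p = 7.73e-08). SARD4 had 22.0, 22.1 and 69.9 CPM in helperless, against 169, 208 and 323 CPM in Col-0 (-2.62 ± 0.58, adjusted p = 0.000452). UGT76B1 had 115, 190 and 381 CPM in helperless, against 962, 1370 and 1680 CPM in Col-0 (-2.55 ± 0.81, adjusted p = 0.0177). The groups did not overlap for any of the 4.

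In adr1 at 8 h, ALD1, SARD4 and FMO1 fell against Col-0 with AvrRps4, where 0.935% of all genes fell. ALD1 had 2.38, 0.473 and 18.8 CPM in adr1 (-3.77 ± 0.81, adjusted p = 0.00326), FMO1 had 11.2, 0.947 and 40.6 CPM (-2.99 ± 0.82, adjusted p = 0.0255) and SARD4 had 72, 28.9 and 88.6 CPM (-1.88 ± 0.56, adjusted p = 0.0484). UGT76B1 had 505, 419 and 1370 CPM in adr1 and did not pass (-0.81, adjusted p = 0.621). The adr1 samples spread more than those of helperless, with replicate 3 the highest for each gene. Of the 11 falls, 8, 4 and 11 remained without replicate 1, 2 or 3. Those that remained without replicate 2 were ALD1 and FMO1 in helperless at 4 and at 8 h. With only the groups compared in the fit 4 remained, the falls in helperless at 8 h. SARD4 in adr1 at 8 h also ended without the low-count filter (adjusted p = 0.0626) and without the libraries that go against their label (adjusted p = 0.0559). DESeq2 kept 10 of the falls and lost FMO1 in adr1 at 8 h (adjusted p = 0.0793).

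Helperless and adr1 differed in 1 of 52 pairs, FMO1 with AvrRps4 at 8 h, where 1.39% of all genes fell. It had 1.45, 1.58 and 0.679 CPM in helperless, against 11.2, 0.947 and 40.6 CPM in adr1, and the groups overlapped at the low adr1 sample (-3.85 ± 0.91, adjusted p = 0.00735). The call ended with only the groups compared in the fit, without replicate 2 (adjusted p = 0.0564) and without replicate 3, the highest adr1 sample (log2 fold change -2.07, adjusted p = 1).

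The difference between responses was tested as an interaction, the effector change in a mutant minus that in Col-0. With AvrRps4 at 8 h, the response was smaller in helperless than in Col-0 for ALD1 (log2 difference -6.45 ± 1.19, adjusted p = 0.000241), SARD4 (-2.64 ± 0.79, adjusted p = 0.0475) and FMO1 (-6.22 ± 1.24, adjusted p = 0.000617), where 1.76% of all genes passed in that direction. UGT76B1 had -2.57 ± 1.1 and did not pass (adjusted p = 0.225). At 4 h the helperless differences for ALD1 (-5.95 ± 1.36, adjusted p = 0.0814) and FMO1 (-5.80 ± 1.5, adjusted p = 0.187) did not pass. For adr1, edgeR called 0 of 36 differences from Col-0 and DESeq2 0, with 4 at an unadjusted p under 0.05, the largest being ALD1 with AvrRps4 at 8 h (-4.49 ± 1.11, adjusted p = 0.099). With AvrRpt2 and AvrRpm1, edgeR called 0 of 12 helperless differences each and DESeq2 0, with 0 at an unadjusted p under 0.05.

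Both sides of the interaction at 8 h rest on EV groups with a sample against its label. Without those libraries ALD1 still passed (-5.01, adjusted p = 0.0482), as did FMO1 (-5.48, adjusted p = 0.0353), whereas SARD4 did not (-1.66, adjusted p = 0.506). Without replicate 1, ALD1 and FMO1 passed; without replicate 2 or replicate 3, ALD1 alone passed (adjusted p = 0.035 and 0.0396), while FMO1 had adjusted p of 0.0509 and 0.107. Between helperless and adr1, edgeR called 0 of 36 differences in response and DESeq2 0, with 2 at an unadjusted p under 0.05, both of FMO1. For AvrRps4 at 8 h the FMO1 difference was -4.92 ± 1.25 (adjusted p = 0.0546).

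The effectors were also set against each other within a genotype at 4 and 8 h, and each of the 12 calls in 96 pairs involved AvrRps4. In Col-0, ALD1 was lower with AvrRpm1 than with AvrRps4 at 8 h, with 27.6, 30.7 and 20.6 CPM, against 75.9, 142 and 91.1 CPM (-1.97 ± 0.75, adjusted p = 0.036), where 7.39% of all genes were lower. This call ended without any 1 of the replicates and by DESeq2 (adjusted p = 0.124). In adr1, FMO1 was higher with AvrRpt2 (1.64% of all genes) and with AvrRpm1 (5.81%) than with AvrRps4 at 4 h. In helperless, FMO1 was higher with AvrRpt2 than with AvrRps4 at 4 h (3.08% of all genes), and ALD1, FMO1 and UGT76B1 were at 8 h (13.3%). ALD1 and FMO1 were higher with AvrRpm1 than with AvrRps4 at 4 h (9.55%), and ALD1, FMO1 and UGT76B1 at 8 h (20.4%). UGT76B1 had 1100, 1710 and 1250 CPM with AvrRpt2 and 1030, 894 and 1130 CPM with AvrRpm1, against 115, 190 and 381 CPM with AvrRps4, without overlap (2.57 ± 0.81, adjusted p = 0.00749, and 2.16 ± 0.80, adjusted p = 0.0171). SARD4 gave 0 calls in 24 contrasts by edgeR and 0 by DESeq2, with 2 at an unadjusted p under 0.05. AvrRpm1 against AvrRpt2 gave 0 of 32 by edgeR and 0 by DESeq2, with 2 at an unadjusted p under 0.05. Of the 12 calls, 8, 5 and 11 remained without replicate 1, 2 or 3, and without replicate 3 a further 14 passed.

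From 4 to 8 h the pathway went on rising in 24 of 64 pairs and fell in 0, and UGT76B1 accounted for 9 of the rises, ALD1 for 6, SARD4 for 5 and FMO1 for 4. With AvrRpt2, ALD1 and FMO1 rose in Col-0 (4.01% of all genes), UGT76B1 in nrg1 (4.30%) and all 4 genes in adr1 (4.91%) and in helperless (4.54%). In helperless, ALD1 had 36.4, 22.1 and 22.4 CPM with AvrRpt2 at 8 h, against 0.598, 3.25 and 3.73 CPM at 4 h (3.40 ± 0.83, adjusted p = 0.00127), and UGT76B1 had 1100, 1710 and 1250 CPM, against 34.8, 180 and 222 CPM (3.22 ± 0.84, adjusted p = 0.00271). In Col-0, ALD1 had 80.7, 30.7 and 69.5 CPM with AvrRpt2 at 8 h, against 11, 18.2 and 8.69 CPM at 4 h (2.26 ± 0.76, adjusted p = 0.0302). The rises of ALD1 and FMO1 in that contrast each ended without any 1 of the replicates and by DESeq2 (adjusted p = 0.0835 and 0.105). With AvrRps4, SARD4 and UGT76B1 rose in Col-0 (3.41% of all genes) and nrg1 (3.26%), and ALD1, FMO1 and UGT76B1 in adr1 (2.44%), while helperless had 0 of 4 by edgeR and 0 by DESeq2, with 1 at an unadjusted p under 0.05. With AvrRpm1, ALD1, SARD4 and UGT76B1 rose in adr1 (3.63%) and UGT76B1 in helperless (5.70%). In nrg1 with AvrRpm1, where same-numbered samples deviated together, UGT76B1 did not pass (1.79, adjusted p = 0.0985) but did with the replicate block (1.87, adjusted p = 0.0349). With EV, ALD1 and UGT76B1 rose in adr1 (4.90%). The 5 rises in adr1 with AvrRpm1 and EV, all of which rest on a replicate with libraries against its label, ended without those libraries. Of the 24 rises, 11, 7 and 13 remained without replicate 1, 2 or 3, and 0 of them reversed.

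Ranked by mean level over the 52 groups, ALD1 and SARD4 were highest in Col-0 with AvrRps4 at 8 h (103 ± 34.5 and 233 ± 80.3 CPM, SD, n = 3) and next in nrg1 with AvrRps4 at 8 h (73.7 ± 59.6 and 200 ± 96.6 CPM). FMO1 was highest in Col-0 with AvrRpt2 at 8 h (194 ± 70.0 CPM), followed by nrg1 with AvrRpt2 (183 ± 58.1 CPM). UGT76B1 was highest in nrg1 with AvrRpt2 at 8 h (1660 ± 145 CPM), followed by adr1 with AvrRpt2 (1440 ± 60.6 CPM). Of the 51 pairs of neighbours in each order, 0 were clear of overlap for ALD1, SARD4 and FMO1, and 2 for UGT76B1, so the order holds only over wider steps. Per kilobase of exon, which allows levels of different genes to be compared, UGT76B1 had 775 CPM per kb in Col-0 with AvrRps4 at 8 h, SARD4 172, FMO1 74.2 and ALD1 65.6.

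Group means of the 4 genes followed each other. Over the 52 groups the Pearson correlation of mean log2 CPM was 0.99 between ALD1 and FMO1, 0.95 between ALD1 and SARD4, and 0.87 between FMO1 and UGT76B1. Over the 32 groups at 4 and 8 h it was 0.97, 0.87 and 0.68. These are descriptions, since the genes were measured in the same libraries and the groups share genotypes and the common rise with time. Among 19683 other genes, those most like ALD1 and FMO1 were CYP714A1 (0.982 and 0.987 over 52 groups), AT1G26390 (0.974 and 0.980) and MSRB8 (0.972 and 0.981). SARD4 was most like NIMIN1 (0.957) and PFK3 (0.956), and UGT76B1 was most like CHI (0.992), AO1 (0.991) and Tic20-IV (0.991).

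**Figure D4:**
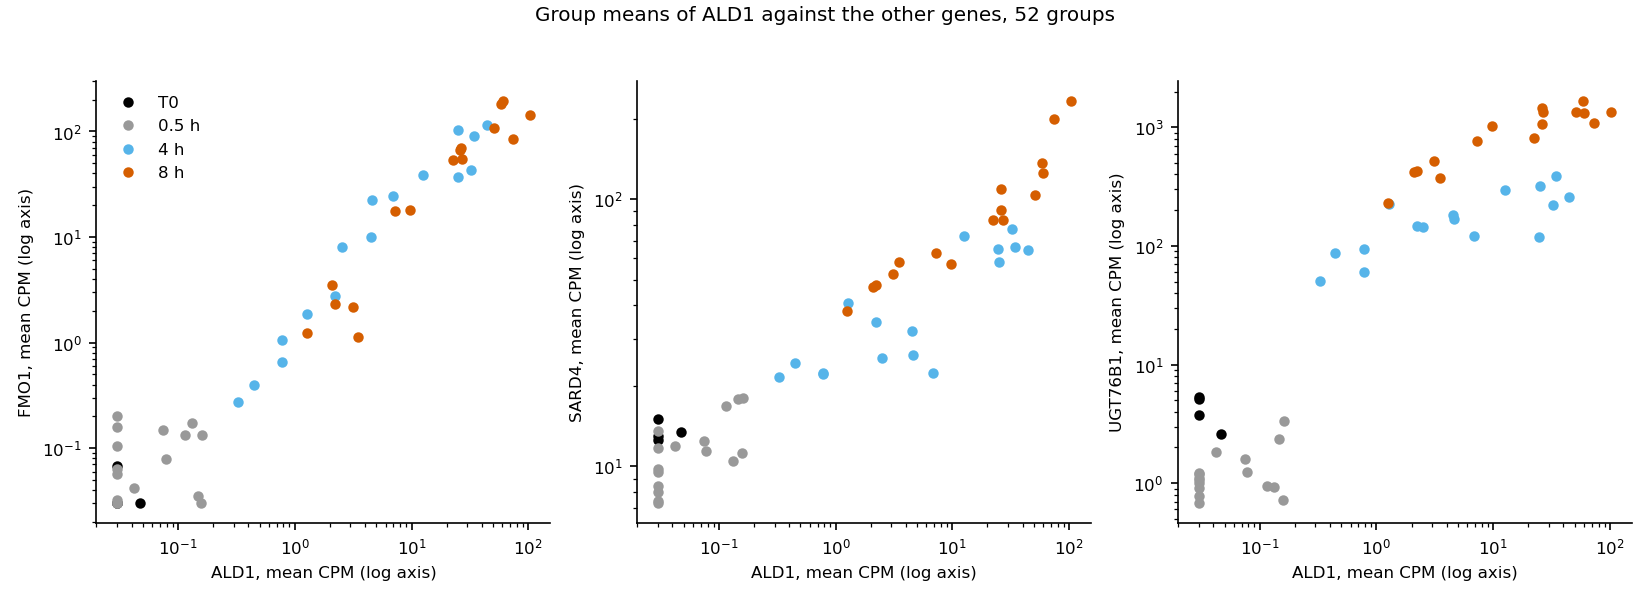
Mean level of ALD1 (x axis, CPM, log) against FMO1, SARD4 and UGT76B1 (y axes, CPM, log) in each of the 52 groups, with 1 point per group coloured by time and means under 0.03 CPM drawn at 0.03. FMO1 follows ALD1 at 4 and 8 h alike, while in Col-0 with AvrRpm1, where ALD1 averaged 25.2 CPM at 4 h and 26.3 CPM at 8 h, UGT76B1 averaged 317 CPM at 4 h and 1060 CPM at 8 h.

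Genes around the pathway were followed through 4 lists: 15 genes of lysine supply and breakdown, 17 regulators, 11 genes of systemic resistance and 4 of salicylic acid synthesis. With EV at 8 h against T0 in Col-0, 11 regulators rose and 0 fell, where 19.3% of all genes rose and 22.9% fell, led by CBP60g (3.86 ± 0.51), SARD1 (3.67 ± 0.64) and WRKY70 (2.72 ± 0.67), transcription factors of plant immunity. The median log2 change of the list was 1.54, against 0.02 over all genes. Of the salicylic acid list 3 rose and 0 fell, among them PBS3 (5.13 ± 0.73), which conjugates isochorismate. Of the lysine list 1 rose and 9 fell, with a median of -1.28; the aspartate kinase AK3 (-3.65 ± 1.09) fell, and LKR/SDH (3.20 ± 0.71), which breaks lysine down by another route, rose. Of the systemic resistance list 5 rose and 3 fell, including EARLI1 (8.84 ± 0.91) and DIR1-LIKE (-7.85 ± 1.03), which have lipid transfer domains. These sets mix activators and repressors, and their counts give no direction for the pathway.

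With AvrRps4 against EV at 8 h in Col-0, where 3.84% of all genes rose, 4 regulators rose and 0 fell, including PAD4 (3.53 ± 0.54), the lipase-like partner of EDS1, and SARD1 (2.96 ± 0.61). The list's median was 0.83, against 0.01 over all genes. In the salicylic acid list PBS3 (3.71 ± 0.67), EDS5 (3.52 ± 0.57) and ICS1 (3.12 ± 0.58) rose, 3 of 4. In the systemic resistance list PR1 (6.42 ± 1.14), a pathogenesis-related protein, and GRXS13 (2.12 ± 0.60), a glutaredoxin, rose, 2 of 11. The lysine list had 0 of 15 called by edgeR, with a median of -0.38, with 6 at an unadjusted p under 0.05 and 0 by DESeq2. With AvrRpt2 at 8 h, where 10.2% of all genes rose and 4.58% fell, 9 regulators rose and 0 fell, and 3 salicylic acid genes rose and EPS1 fell (-1.26 ± 0.43). In that contrast 3 lysine genes fell, among them DHDPS1 (-1.37 ± 0.26), and 2 of the systemic resistance list rose, PR1 (5.78 ± 1.11) and GRXS13 (2.15 ± 0.60). With AvrRpm1 at 8 h, 17.1% of all genes rose and 11.8% fell. Of 17 regulators 2 rose, WRKY33 (1.58 ± 0.42) and PAD4 (1.37 ± 0.50), a share no higher than that of all genes. In the salicylic acid list 3 rose and 1 fell, in the lysine list 1 rose and 4 fell, and in the systemic resistance list 1 rose and 3 fell, led by PR1 (3.05 ± 0.99) and EARLI1 (-3.54 ± 0.71).

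In helperless against Col-0 with AvrRps4 at 8 h, 8 regulators fell and 0 rose, where 7.32% of all genes fell, with a median of -0.95, against 0.05 over all genes. PAD4 (-4.74 ± 0.57), SARD1 (-3.82 ± 0.64) and WRKY70 (-3.21 ± 0.68) fell most. PBS3 (-5.11 ± 0.72), EDS5 (-4.44 ± 0.60) and ICS1 (-3.88 ± 0.61) fell, 3 of 4 in the salicylic acid list, and PR1 (-6.23 ± 1.13), GRXS13 (-3.18 ± 0.63) and PR2 (-2.79 ± 1.02) fell, 3 of 11 in the systemic resistance list. The lysine list had 0 of 15 called by edgeR, with a median of 0.78, with 9 at an unadjusted p under 0.05 and 0 by DESeq2. As interactions with Col-0, PAD4 (-3.93 ± 0.72), SARD1 (-3.41 ± 0.83), PBS3 (-3.76 ± 0.88), EDS5 (-3.61 ± 0.76), ICS1 (-2.81 ± 0.78), PR1 (-7.12 ± 1.43) and GRXS13 (-3.29 ± 0.84) passed in the same direction as ALD1 and FMO1. With AvrRpt2 against EV at 8 h in helperless, 10.8% of all genes rose and 9.0% fell. There 9 regulators rose and 0 fell, led by PAD4 (3.96 ± 0.55), and PBS3 (5.19 ± 0.72), ICS1 (4.33 ± 0.62) and EDS5 (3.99 ± 0.58) rose while EPS1 (-1.22 ± 0.44) fell. In the lysine list 1 rose and 5 fell, and in the systemic resistance list 2 rose and 1 fell.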

How the data were processed

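Leaf RNA of 52 groups was sequenced on an Illumina HiSeq as 50-base single-end reads from oligo(dT)-selected RNA, per the labels' protocols. The authors deposited raw counts per gene, made with FastQC 0.11.7, Trimmomatic 0.36, HISAT2 2.1.0 and featureCounts on TAIR10, per the submitters' processing notes; the strand setting is not given in the sources used here. Counts of libraries that share a group and replicate number were summed, which gave 3 replicates a group (156 replicates from 305 libraries). Total counts per library ran from 3128554 to 23257821, and low counts of ALD1 and FMO1 before 4 h limit their fold changes.

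One edgeR 4.0.16 model of group means (R 4.3.3, limma 3.58.1, TMM, which is scaling by a trimmed mean of log ratios, filter by group, robust quasi-likelihood F test, 104 residual degrees of freedom) was fitted to 19687 genes. A call needed a Benjamini-Hochberg adjusted p under 0.05 over all genes of that contrast and a log2 fold change of at least 1 in size; 176 contrasts were made. SEs are log2 fold changes divided by the root of F. The labels do not say that replicates came from separate plants, so p-values measure only the spread between these samples. A fold against groups with 0 counts was set against a floor of 3 counts over the group, and ratios of low counts have exact 95% intervals. The steps were tested on simulated data.

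The 4 genes and the lists around them were chosen with earlier results of these data known. From a list, the counts and the 1 to 3 called genes with the largest change were named; for likeness, genes with the highest Pearson correlation of group mean log2 CPM. Alternatives were RLE factors, no low-count filter, libraries unsummed, leaving out each replicate, leaving out 10 libraries whose helper gene counts go against their label (ratio cut 10), only the groups compared, a replicate block and DESeq2 1.42.0. Promoters and gene models are from RefSeq TAIR10.1, by gene identifier.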

Additional observations from a re-analysis of the deposited data

Results flagged for a closer look

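Of the differences between genotypes in effector response, 3 passed a test of the difference itself, all with AvrRps4 at 8 h and all smaller in helperless than in Col-0. The log2 difference of responses was -6.45 for ALD1, -6.22 for FMO1 and -2.64 for SARD4. In helperless the responses of these genes were -0.85, -0.93 and -0.33, and in Col-0 they were 5.60, 5.29 and 2.32. Each difference uses EV samples with libraries against their label, and SARD4 did not pass without those libraries (adjusted p = 0.506, edgeR). Groups of 3 samples were not tested for single samples far from the others.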

How the results depend on the processing

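Of the 124 calls for the 4 genes in 176 contrasts (edgeR, adjusted p under 0.05 and a log2 fold change of at least 1), 123 remained with RLE factors, 120 without the low-count filter, 116 with DESeq2, 114 without the libraries that go against their label and 80 with only the groups compared in the fit, where 36 were lost and 8 had no value because the gene did not pass the filter there. All 124 remained with libraries unsummed, and 57 more passed, since libraries of the same replicate then count as separate samples. Without replicate 1, 2 or 3 of every group, 85, 61 and 99 remained, and without replicate 3 a further 20 passed. Further calls numbered 2 with RLE factors, 3 with DESeq2 and 12 with only the groups compared. Without the libraries that go against their label a further 5 passed. None of the called log2 fold changes turned its direction in these alternatives.

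Against the counts given in the report, leaving out 1 replicate gave 22 to 28 calls for EV against T0 (29), 7 to 13 for effectors against EV in Col-0 (14), 8 to 11 in nrg1 (14), 4 to 9 in adr1 (9) and 2 to 8 in helperless (7). It gave 4 to 12 for mutants against Col-0 (11), 1 to 2 for differences in response from Col-0 (3), 0 to 1 for helperless against adr1 (1), 7 to 13 for 8 h against 4 h (24) and 5 to 25 for effector against effector (12). Unsummed libraries gave 39 calls for 8 h against 4 h, 28 for effector against effector, 17 for mutants against Col-0, 7 for differences from Col-0, 3 for helperless against adr1 and 1 for the difference in response between helperless and adr1 (0). With only the groups compared there were 19 calls for EV against T0, 4 for mutants against Col-0 and 0 for helperless against adr1. Beyond smaller groups and fewer samples, the causes were not tested.

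The labels do not say that a replicate number marks a shared batch. Same-numbered samples deviated together, with every correlation over 0.1, in 57 of 140 contrasts of 2 groups (median correlation 0.232 with the same number and -0.129 with different numbers). With the number as a replicate block, 123 of the 124 calls remained and 21 more passed. That gave 33 calls for 8 h against 4 h, 16 for effector against effector and 1 for the difference between helperless and adr1, FMO1 with AvrRps4 at 8 h (log2 difference -4.96, adjusted p = 0.0461). The call not made with the block was ALD1 with AvrRps4 at 4 h in nrg1 (adjusted p = 0.0573). Among the 57 contrasts the block changed 4 calls, each given with its result. Depth limits ALD1 and FMO1 up to 0.5 h, where each sample had at most 3 counts.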
